A study of Mus musculus with 27 samples.

Results

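The 31 genes described here encode enzymes and regulators of sterol and fatty acid synthesis. They were listed by symbol, without regard to their values, and all 31 were found among the 55367 gene names of the deposited tables. They comprise 8 genes of the mevalonate steps, 11 of the sterol steps from squalene on, 6 sensors and carriers of sterol, and 6 genes of fatty acid synthesis. Hmgcs1 and Sqle, the marker genes of the group, were read in all 15 ganglion libraries and all 12 retinal libraries.

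Polyadenylated RNA of mice was sequenced in a study of the tyrosine phosphatase gene Ptpn2, interferon gamma (IFNγ) and axon regrowth, in 27 libraries with 3 in each of 9 groups. The ganglion experiment used L4-L5 dorsal root ganglia, home to the sensory neurons that send axons down the sciatic nerve. The 5 groups there were wild-type mice after sham surgery, wild-type mice after sciatic nerve injury, Ptpn2 knockout mice after sham surgery, Ptpn2 knockout mice after injury, and injured wild-type mice whose sciatic nerve was injected with RU521, an inhibitor of the DNA sensor cGAS. The labels give 3 days after injury, title the controls intact but list their treatment as sham surgery, and call the tissue ganglion where the series text speaks of nerve. The retinal experiment used picked retinal ganglion cells, the neurons whose axons form the optic nerve, from Ptpn2 flox mice whose eyes received a viral vector (AAV) with Cre or with GFP 2 weeks before optic nerve injury. Its 4 groups, all injured and collected 3 days later, were wild type (GFP) with PBS, wild type with IFNγ, knockout (Cre) with PBS and knockout with IFNγ. The driver of Cre in ganglia, the ages of the mice, the number of cells in a retinal library and whether replicates are separate animals are not stated in the labels, so p-values measure only the spread between these libraries.

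Cholesterol is built from acetyl-CoA through mevalonate, isoprenoid diphosphates, squalene and lanosterol. Transcription of most of these enzymes is driven by sterol regulatory element-binding proteins (SREBPs), which the Insig proteins hold in the endoplasmic reticulum together with the escort protein Scap when sterol is plentiful. In peripheral nerve and ganglia the pathway is known above all for supplying myelin and neuronal membranes, while SREBP-1 also drives fatty acid synthesis.

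Levels are read counts scaled to library size with TMM factors (CPM, a share of the library's reads). A gene was called where its adjusted p was under 0.05 in edgeR's quasi-likelihood test with Benjamini-Hochberg adjustment over all genes tested, and "rose" and "fell" are used of called genes. Ganglion libraries held 14813365 to 22414750 counts with 26235 to 34340 detected genes, and retinal libraries held 13239988 to 17122057 counts with 11508 to 13866 detected genes. Wild-type sham replicates 1 and 3 had the fewest detected genes of the ganglion libraries, 26235 and 26802 against 34115 in replicate 2. Mitochondrial genes took 4.87% and 6.52% of their counts against 15.2%, and summed sensory neuron markers were at 13941 and 13702 CPM against 8287 CPM in replicate 2. RU521 replicate 1 came next, at 28803 genes, 7.83% and 12574 CPM. For some other marker lists replicate 2 stood apart from both and from knockout sham. Its endothelial and fibroblast sum was 3880 CPM, against 1683 and 1854 CPM and, in knockout sham, 1674 to 1922 CPM. Its myelinating Schwann sum was 17327 CPM, against 11159 and 11705 CPM and, in knockout sham, 11824 to 12596 CPM. Ptpn2 counts stood at 11.6 to 19.8 CPM in wild-type ganglia and 10.5 to 26.5 CPM in ganglia labelled knockout. They sum all exons, the deleted part is not given, and so they do not check the labels, on which every genotype below rests.

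Promoters bear on the group because SREBPs act there, together with the factors NF-Y and Sp1. A window from 250 bases before to 50 bases after the start of transcription (RefSeq, GRCm38.p6) was found for 25 members. It was not found for Stard4, Sqle, Fdft1, Scd2, Fdps and Scd1. The sterol regulatory element consensus TCACNCCAC, searched on both strands, matched in 1 member, Hmgcs1, against 1.44% of 27025 genes with promoters of the same length (1.24% of 32851 promoters). Only these letters were searched, so a sterol element spelled otherwise was not counted, and a member without a match may still hold one. A gene with more than 1 promoter was counted once, if any of them matched. The NF-Y box CCAAT was found in 21 of the 25 members (84%) against 41.1% of genes (37.4% of promoters). The Sp1 box GGGCGG was found in 20 of the 25 (80%) against 38.2% of genes (35.7% of promoters). The genes compared were not limited to those expressed in ganglia, as all members were. These shares therefore do not show a trait particular to the group. The 250 bases before the start are shown for Hmgcs1, the member with a match to TCACNCCAC, and for Hsd17b7 and Cyp51. Hsd17b7 and Cyp51 were chosen after their values were seen, as a member that rose and one that fell with injury in the knockout. Capitals mark every match on either strand (CCAAT reads ATTGG and GGGCGG reads CCGCCC on the other strand), and no matches overlap in these 3.
Hmgcs1: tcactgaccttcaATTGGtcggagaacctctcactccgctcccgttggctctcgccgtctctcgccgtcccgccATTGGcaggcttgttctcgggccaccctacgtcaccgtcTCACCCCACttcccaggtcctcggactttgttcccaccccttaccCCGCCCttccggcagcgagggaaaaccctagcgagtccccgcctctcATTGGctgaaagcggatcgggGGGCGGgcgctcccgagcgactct
Hsd17b7: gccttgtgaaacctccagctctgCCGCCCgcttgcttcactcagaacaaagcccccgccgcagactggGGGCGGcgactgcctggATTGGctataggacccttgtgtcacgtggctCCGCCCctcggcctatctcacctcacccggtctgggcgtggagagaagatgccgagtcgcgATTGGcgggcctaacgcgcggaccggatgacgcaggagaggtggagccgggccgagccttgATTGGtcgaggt
Cyp51: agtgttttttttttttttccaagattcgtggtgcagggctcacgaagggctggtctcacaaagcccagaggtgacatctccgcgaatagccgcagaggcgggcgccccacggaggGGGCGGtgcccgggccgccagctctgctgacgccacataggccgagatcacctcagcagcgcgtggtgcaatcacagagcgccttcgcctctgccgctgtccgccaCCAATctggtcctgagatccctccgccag
These windows lie at chr13:119690101-119690350 (plus strand), chr1:169969206-169969455 (minus strand) and chr5:4104698-4104947 (minus strand). The TCACNCCAC match of Hmgcs1 runs from base 114 to base 122. The windows of Hsd17b7 and Cyp51 hold both of the other boxes and no TCACNCCAC. A match describes the letters, not a bound site, and a missing match does not show that a sterol element is absent.

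In ganglia all 31 members had at least 3 counts in every library and all entered the test. Per kilobase of exon, the highest means over the 15 libraries were those of the desaturases Scd1 (257 CPM per kb) and Scd2 (237 CPM per kb), which put a double bond into fatty acids, followed by Hmgcs1 (209 CPM per kb), the synthase of HMG-CoA. The SDs over libraries, 52.9, 34.6 and 39.4 CPM per kb, exceed the gaps between these neighbours. In wild-type sham ganglia alone the order was another, with Hmgcs1 at 245 ± 14.6, Scd2 at 241 ± 13.4 and Scd1 at 193 ± 10.97 CPM per kb (SD, n = 3). Acly, which makes acetyl-CoA from citrate, stood at 103 CPM per kb, Fdft1, squalene synthase, at 91.3, and Sqle, squalene epoxidase, at 57.4. The lowest were Lss, lanosterol synthase (4.57 CPM per kb), Scap (4.08) and Acaca, acetyl-CoA carboxylase (2.51). Over the 15 libraries the ratio of highest to lowest level was widest for Hsd17b7 (3.62), Elovl6 (3.21) and Stard4 (2.86), and narrowest for Insig2 (1.36).

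In wild type, Hmgcs1 was at 1180.1, 1052 and 1150.5 CPM without and at 1124, 1117 and 1104 CPM with injury. In the knockout it was at 1005, 943 and 937 CPM without and at 564, 661 and 757 CPM with injury, and RU521 libraries held 974, 902 and 944 CPM. The 3 knockout injured libraries are the lowest of all 15. Sqle was at 455, 182 and 381 CPM in wild-type sham, and its range over the other 12 libraries, 259 to 359 CPM, lies inside the range of those 3. Wild-type sham replicate 2 was the lowest of its group for 24 of 31 members (77.4%), against 39.3% of all genes tested, among them Acly (820, 313 and 686 CPM), Nsdhl, a sterol dehydrogenase (106, 54.0 and 95.3 CPM), and Dhcr7, the reductase that yields cholesterol (91.6, 43.7 and 85.4 CPM). Elovl6 and Stard4 did not share this, with sham levels of 107, 113 and 113 CPM and 55.3, 53.7 and 53.5 CPM. Whether the 2 sham libraries of few detected genes or replicate 2 better stand for sham ganglia cannot be told from these samples.

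**Figure D1:**
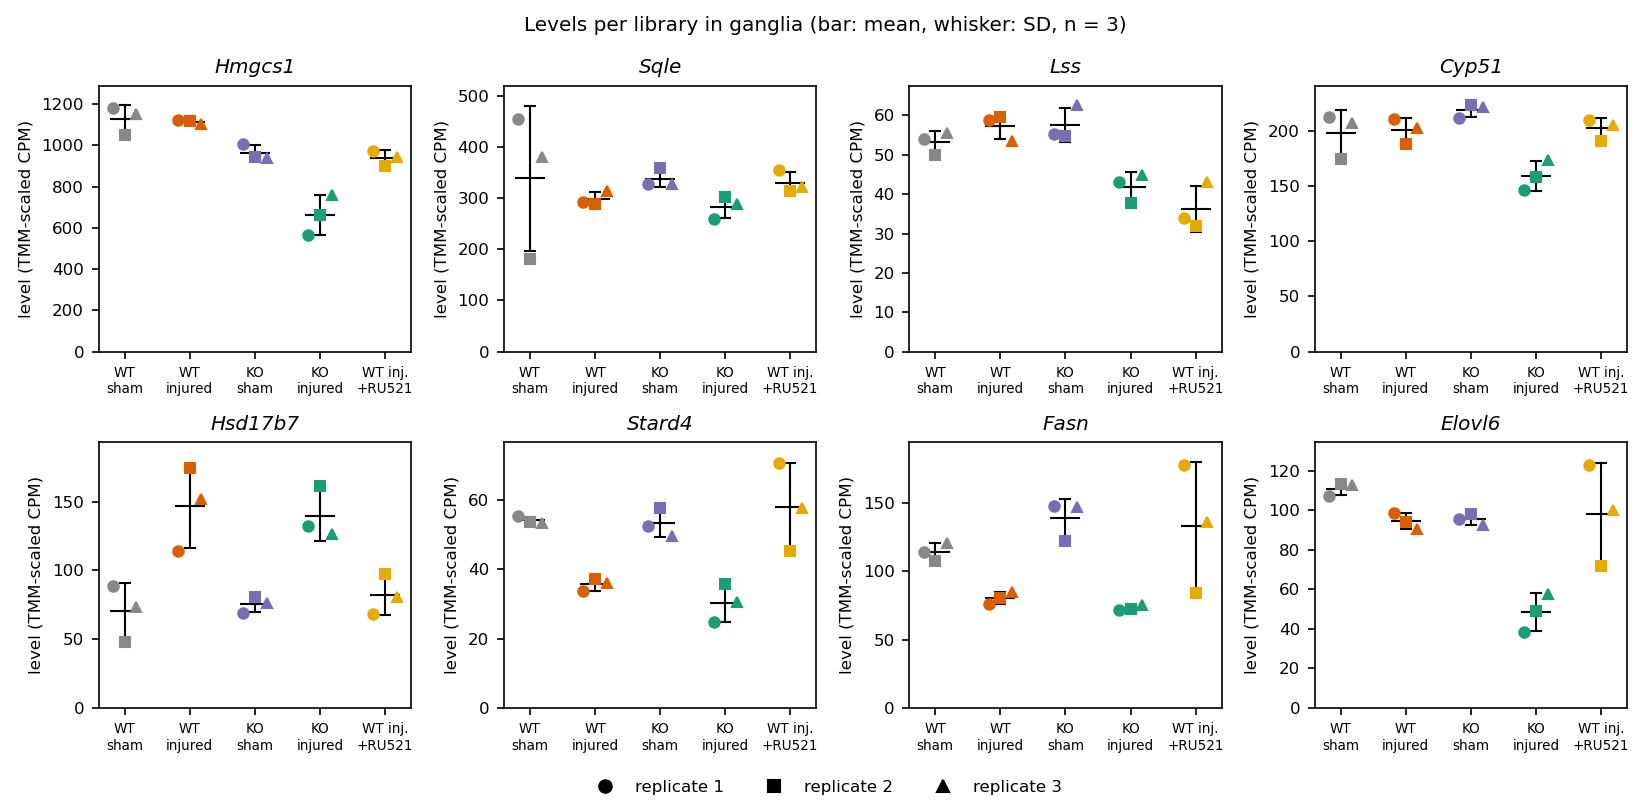
Levels of 8 members in each ganglion library (vertical axis, TMM-scaled CPM, from 0), by group on the horizontal axis, with a symbol for each replicate number, a bar at the mean and whiskers of 1 SD (n = 3). Hmgcs1 and Elovl6 are lowest in the 3 knockout injured libraries, Hsd17b7 is high in both injured groups without RU521, and Sqle is widely spread in wild-type sham.

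Sciatic injury in wild-type ganglia left most of the group without a call. Hsd17b7, a reductase in the removal of methyl groups from the sterol ring, rose, while Tm7sf2, a sterol reductase, and Stard4, a carrier that moves cholesterol between membranes, fell. Thus 1 member rose, against 8.6% of all genes tested, and 2 of 31 fell, against 7.98% of all genes. Log2 fold changes were negative for 21 members and positive for 10, with a median of -0.18, against 0.000378 over all genes.

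Hsd17b7 stood at 88.7, 48.2 and 73.7 CPM in sham libraries and at 114, 175 and 152 CPM in injured ones. Every injured library was above every sham library, and the log2 fold change was 1.06 ± 0.21 (SE, adjusted p = 0.00499, edgeR quasi-likelihood). Stard4 went from 54.2 ± 1.01 CPM (SD, n = 3) to 33.6, 37.3 and 36.2 CPM after injury, a log2 change of -0.60 ± 0.16 (edgeR adjusted p = 0.0215) without overlap. Tm7sf2 had 92.8, 60.4 and 86.2 CPM in the sham group, against 58.6, 50.8 and 51.7 CPM in the injured group. Its groups did not overlap either, though sham replicate 2 lay close to the injured range, and its log2 change was -0.57 ± 0.16 (edgeR adjusted p = 0.0245).

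Among the mevalonate genes, 7 of 8 had a negative and Idi1, the isopentenyl diphosphate isomerase, a positive fold change (0.33 ± 0.14, not called). Of the 6 fatty acid genes none was called by edgeR, and DESeq2 called Acaca and Scd1. Of the 6, 3 had an unadjusted p under 0.05 in edgeR, against 5803 of all 18517 genes tested. Fasn, fatty acid synthase, was at 114, 107 and 121 CPM in sham and 76.1, 80.6 and 85.0 CPM in injured ganglia, without overlap, and missed the threshold (-0.50 ± 0.19, edgeR adjusted p = 0.0858). Scd1 was higher in all 3 injured libraries, at 1036 to 1573 CPM against 888 to 996 CPM (0.53 ± 0.18, edgeR adjusted p = 0.0543). Without overlap between groups, 9 members were lower after injury (15.8% of all genes) and 5 were higher (17.5% of all genes), or 9 and 3 with DESeq2 size factors.

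The count turned on the sham libraries. The counts below lack the share of all genes called in the same fits, so they do not set the members apart from other genes. Without sham replicate 2, 15 members were called, 2 that rose (Hsd17b7 and Scd1) and 13 that fell, among them Sqle (-0.49), Acly (-0.66) and Dhcr7 (-0.69). With sham replicate 2 as the only sham library, an omission chosen after seeing the data, 5 members were called and all rose, among them Sqle (0.77) and Acly (0.66), and the median of the members was 0.19. Without sham replicate 1 or 3, or injured replicate 2 or 3, only Hsd17b7 was called. Hsd17b7 was called in all 14 alternatives, Stard4 and Tm7sf2 in 7 each.

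With injury in wild type, sensory neuron markers fell (10 of 13), macrophage markers rose (12 of 12), neutrophil markers rose (7 of 7) markers of myelinating Schwann cells rose (5 of 10), as did those of red blood cells (5 of 5), and 4 of 10 endothelial and fibroblast markers rose. Summed sensory neuron markers were at 8287 to 13941 CPM in sham and 6008 to 6725 CPM in injured ganglia, summed macrophage markers at 377 to 1179 and 2793 to 2921 CPM, and summed myelin markers at 11159 to 17327 and 23888 to 25267 CPM. Their part in the members' changes was not tested, and in bulk tissue fewer cells of a type and less RNA per cell cannot be told apart.

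In ganglia labelled Ptpn2 knockout, the fatty acid genes Elovl6 and Fasn, the carrier Stard4, and Hmgcs1, Tm7sf2, Cyp51 and Lss of the sterol pathway fell with injury, and Hsd17b7 rose. Thus 7 of 31 members fell, where 4.57% of all genes did, and 1 rose, where 6.34% did. The fold change was negative for 29 members and positive for Hsd17b7 and Ebp, a sterol isomerase (0.44 ± 0.15, edgeR adjusted p = 0.0794). The median was -0.34, against -0.00508 over all genes. For 22 members (71.0%) all injured libraries were below all sham libraries, against 18.5% of all genes, and the count was 22 and 23 with DESeq2 size factors and with total counts. For 2 members all were above (19.7% of all genes).

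Elovl6, which lengthens palmitate to stearate, was at 95.5, 98.4 and 92.3 CPM in sham and 38.3, 49.2 and 57.5 CPM in injured libraries. Every injured library was far below the sham range, and the log2 change was -0.98 ± 0.17 (edgeR adjusted p = 0.00228). Fasn was at 148, 122 and 147 CPM against 71.6, 72.2 and 75.4 CPM, again without overlap (-0.93 ± 0.19, edgeR adjusted p = 0.00659). The remaining fatty acid genes were not called, with log2 changes from -0.39 (Acaca) to -0.11 (Acly).

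Of the sterol sensors and carriers, Stard4 had 52.6, 57.7 and 49.7 CPM in sham libraries against 24.8, 35.7 and 30.5 CPM in injured ones, all lower (-0.82 ± 0.16, edgeR adjusted p = 0.00518). Srebf2, which encodes the SREBP of sterol synthesis, was also lower in every injured library, at 52.7 to 59.7 CPM against 65.6 to 84.5 CPM, but missed the threshold (-0.46 ± 0.15, edgeR adjusted p = 0.0574). Insig1, Insig2, Scap and Srebf1 had log2 changes between -0.18 and -0.03 and were not called.

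Hmgcs1 fell by 0.54 ± 0.12 on the log2 scale (edgeR adjusted p = 0.0111), from 962 ± 37.6 CPM to 661 ± 96.6 CPM (SD, n = 3). The other 7 mevalonate genes had log2 changes from -0.37 (Idi1) to -0.17 (Ggps1, the synthase of geranylgeranyl diphosphate), none of them called. Among the sterol steps, Tm7sf2 was at 78.4, 65.8 and 66.1 CPM in sham against 41.1, 42.7 and 44.7 CPM in injured ganglia (-0.71 ± 0.16, edgeR adjusted p = 0.0104). Cyp51, the lanosterol demethylase, was at 212, 223 and 222 CPM against 146, 158 and 173 CPM (-0.46 ± 0.12, edgeR adjusted p = 0.0192). Neither gene's groups overlapped. Lss fell by 0.46 ± 0.13 (edgeR adjusted p = 0.0388). Hsd17b7 went the other way, from 69.3, 81.0 and 76.0 CPM to 132, 161 and 127 CPM, without overlap (0.89 ± 0.21, edgeR adjusted p = 0.0132). Sqle, at 329, 359 and 329 CPM against 259, 302 and 289 CPM, was lower in every injured library and was not called (-0.26 ± 0.22, edgeR adjusted p = 0.524).

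**Figure D2:**
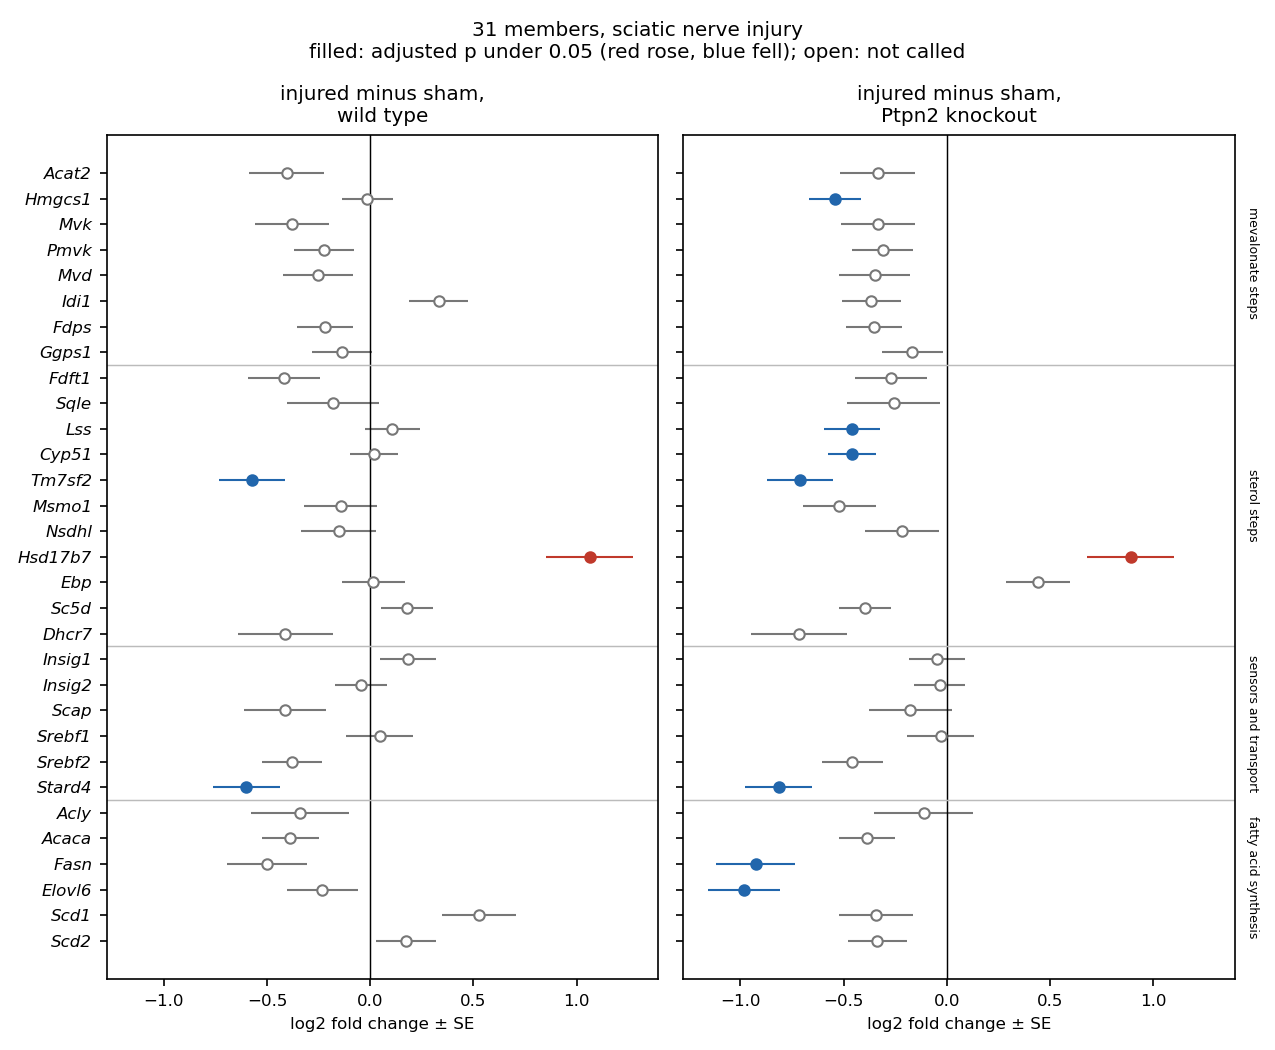
Log2 fold change of injured minus sham ganglia (horizontal axis, whiskers of 1 SE) for the 31 members, ordered by role on the vertical axis, in wild type (left) and knockout (right). Filled points passed an adjusted p of 0.05 (red rose, blue fell). In the knockout 29 of 31 points lie below 0, and Hsd17b7 is the called gene above 0 in both panels.

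Counts of called members in the knockout ranged from 3 (without sham replicate 1) to 7 when 1 library was left out, with 5 without sham replicate 3 or injured replicate 1 and 4 without injured replicate 2, and reached 21 (2 rose, 19 fell) when the knockout groups alone were fitted. Elovl6, Fasn and Stard4 fell in all 13 alternatives, Tm7sf2 in 12, Hmgcs1 in 10, Cyp51 in 7 (edgeR, DESeq2 or limma adjusted p up to 0.128) and Lss in 6 (up to 0.212), and Hsd17b7 rose in 10. Here too sensory neuron markers fell (4 of 13), macrophage markers rose (11 of 12) and neutrophil markers rose (4 of 7), while no marker of myelinating Schwann cells was called by edgeR (2 of 10 had an unadjusted p under 0.05). Adipocyte markers fell (6 of 11 tested), their summed level being 189 to 313 CPM in knockout sham and 36.9 to 92.0 CPM in knockout injured ganglia. Among those, Ucp1, a mitochondrial uncoupler of brown fat, stood at 65.8 CPM in knockout sham and 5.81 CPM in knockout injured ganglia, and fat cells also express Fasn, Elovl6 and Scd1. Summed satellite glia markers were at 11258 to 12499 CPM in knockout sham and 7844 to 10067 CPM in knockout injured ganglia. Summed endothelial and fibroblast markers went the other way, at 1674 to 1922 CPM in sham and 2163 to 2406 CPM in injured ganglia. The part of these cells in the members' changes was not tested.

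Related lipid genes gave a mixed count. Of 14 genes of sterol storage and export, 4 rose with injury in wild type, and 3 rose and 1 fell in the knockout. Abca1, the cholesterol exporter, rose in both (0.87 ± 0.21 and 1.23 ± 0.21), and Apoe, the main lipid carrier of nervous tissue, fell in the knockout (-0.49 ± 0.14). Of 25 other genes of lipid synthesis, 6 rose and 1 fell in wild type, the risers including Fa2h, Ugt8a and Cers2, which make the sphingolipids of myelin (0.74 ± 0.13, 0.80 ± 0.18 and 0.61 ± 0.11). In the knockout 2 rose and 4 fell, with Dgat2, which forms triglyceride, at -0.83 ± 0.18. Of 15 tested genes of fatty acid oxidation, 1 rose in wild type (Ucp2, 1.06 ± 0.26) and 2 fell in the knockout (Pdk4, -0.99 ± 0.29, and Cpt1a, -0.52 ± 0.15).

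The difference between both injury responses was tested directly as the genotype by injury interaction. No member was called by edgeR's quasi-likelihood test, where 0.448% of all genes were. An unadjusted p under 0.05 was reached by 8 of 31 members, against 1811 of all 18517 genes tested. All 8 had a more negative change in the knockout. They were Scd1 (-0.87 ± 0.25), Elovl6 (-0.75 ± 0.24), Idi1 (-0.70 ± 0.20), Sc5d, a sterol desaturase (-0.58 ± 0.18), Lss (-0.57 ± 0.19), Hmgcs1 (-0.53 ± 0.17), Scd2 (-0.51 ± 0.20) and Cyp51 (-0.48 ± 0.16). Their edgeR adjusted p-values ran from 0.21 (Scd1) to 0.41 (Scd2). DESeq2 called 0 members and limma-voom called 9. Without wild-type sham replicate 2 the count was 1 (Scd1), and with replicate 2 as the only wild-type sham library it was 9.

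After sham surgery the genotypes differed in no member by edgeR's quasi-likelihood test, where 0.135% of all genes were called. An unadjusted p under 0.05 was reached by 2 of 31 members, against 1607 of all 18517 genes tested. Scd1 was at 1252, 1602 and 1628 CPM in the knockout and 942, 996 and 888 CPM in wild type, without overlap (0.67 ± 0.18, edgeR adjusted p = 0.191), and DESeq2 called it. Scap was lower in the knockout (-0.48 ± 0.20, edgeR adjusted p = 0.496). Without overlap between groups, 4 members were lower in the knockout (5.24% of all genes) and 3 were higher (6.65%), or 4 and 1 with total counts. Among the 4 were Hmgcs1 (937 to 1005 against 1052 to 1180 CPM) and Elovl6 (92.3 to 98.4 against 107 to 113 CPM). Some adipocyte markers were higher in the knockout too: 4 of 11 tested rose, among them Ucp1 (6.62 ± 0.60) and Pck1 (4.71 ± 0.64). The summed level of the list was 17.3, 199 and 32.4 CPM in wild type and 189, 309 and 313 CPM in the knockout. In injured wild-type ganglia it was 35.4 to 80.5 CPM, where Scd1 was at 1036 to 1573 CPM. The part of fat cells in the level of Scd1 was not tested. The median of the members was -0.00657. Without wild-type sham replicate 2, 3 members were called, Scd1 up and Acly and Nsdhl down in the knockout. With it as the only wild-type sham library, 5 were called, all higher in the knockout, Sqle (0.93), Acly (0.78), Msmo1 (0.72), Acat2 (0.65) and Nsdhl (0.56).

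After injury, Hmgcs1 and Elovl6 were lower in the knockout than in wild type. After sham surgery both were also lower in the knockout without overlap, though neither was called there. No member was higher by the test (1.39% of all genes were) and 2 were lower (0.81% of all genes). The 3 knockout libraries of Hmgcs1, at 564, 661 and 757 CPM, lay below the wild-type libraries at 1124, 1117 and 1104 CPM. The log2 difference was -0.76 ± 0.12 (edgeR adjusted p = 0.00261). Elovl6 was at 38.3, 49.2 and 57.5 CPM against 98.7, 94.2 and 90.5 CPM, a log2 difference of -0.97 ± 0.17 (edgeR adjusted p = 0.00574), again with no overlap. Both were called in all 13 alternatives. For 2 of 31 members every knockout library was above every wild-type library, against 16% of all genes. With Hmgcs1 and Elovl6 counted, 14 had every knockout library below every wild-type library, against 14.3% of all genes. Of the 14, 7 belong to the sterol steps. Scd2, also among the 14, was at 947, 1025 and 1142 CPM against 1296, 1633 and 1527 CPM (-0.52 ± 0.14, edgeR adjusted p = 0.0874). Idi1, another of the 14, was at 43.6, 47.6 and 54.2 CPM against 71.6, 68.3 and 65.5 CPM (-0.50 ± 0.14, edgeR adjusted p = 0.103). Sqle did not differ beyond its spread (-0.08 ± 0.22), nor did Hsd17b7 (-0.07 ± 0.21). A fit of both groups alone called 10 members.

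Other cell markers differed in the same contrast. Of 10 markers of myelinating Schwann cells 3 were lower in the knockout, and their summed level was 11374, 12178 and 14345 CPM against 25267, 23888 and 23998 CPM, without overlap. The myelin lipid genes Fa2h (-0.96 ± 0.13) and Ugt8a (-1.31 ± 0.18) and the phospholipid gene Pcyt2 (-0.46 ± 0.11) were the 3 of 25 other lipid synthesis genes that were lower. Summed sensory neuron markers were at 6191 to 6720.3 CPM in the knockout and 6008 to 6725 CPM in wild type, and none of the 13 reached even an unadjusted p under 0.05 in edgeR. Of 12 macrophage markers 2 were higher. Of 10 endothelial and fibroblast markers 3 were lower, and their sum was 2163 to 2406 CPM in the knockout and 3397 to 3443 CPM in wild type. Red blood cell markers summed to 5293 to 6582 CPM against 10704 to 10773 CPM, and all 5 were lower without overlap, though none was called by edgeR (2 had an unadjusted p under 0.05). The part of these cells in the levels of Hmgcs1 and Elovl6 was not tested.

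RU521 in injured wild-type ganglia was compared with the same injured wild-type libraries as the knockout above, so the 2 comparisons share their controls. Stard4 and Fasn rose with RU521 and Hsd17b7 and Lss fell, that is 2 of 31 members in each direction, where 5.1% of all genes rose and 4.48% fell. Fold changes were positive for 22 members and negative for 9, with a median of 0.16 against -0.0254 over all genes. Groups did not overlap for 8 members that were higher (16.1% of all genes) and 4 that were lower (16.9%), or 10 and 3 with DESeq2 size factors.

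Lss was at 33.9, 32.0 and 43.0 CPM with RU521 and 58.7, 59.5 and 53.5 CPM without, all lower (-0.66 ± 0.13, edgeR adjusted p = 0.00821). Hsd17b7 was at 68.5, 97.2 and 80.6 CPM against 114, 175 and 152 CPM, also without overlap (-0.84 ± 0.21, edgeR adjusted p = 0.0215), and the RU521 libraries lay in the range of both sham groups, 48.2 to 88.7 CPM, but for 97.2 CPM in replicate 2. Stard4 was at 70.8, 45.3 and 57.7 CPM against 33.6, 37.3 and 36.2 CPM, all higher (0.70 ± 0.16, edgeR adjusted p = 0.0156). Fasn was at 178, 84.3 and 136 CPM against 76.1, 80.6 and 85.0 CPM. Its replicate 2 lay inside the untreated range, so the groups overlapped although the gene was called (0.72 ± 0.19, edgeR adjusted p = 0.0292). Hmgcs1 was lower in all 3 RU521 libraries and was not called (-0.25 ± 0.12, edgeR adjusted p = 0.229), Elovl6 overlapped (0.06 ± 0.17), and Sqle was close to level (0.14 ± 0.22).

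**Figure D3:**
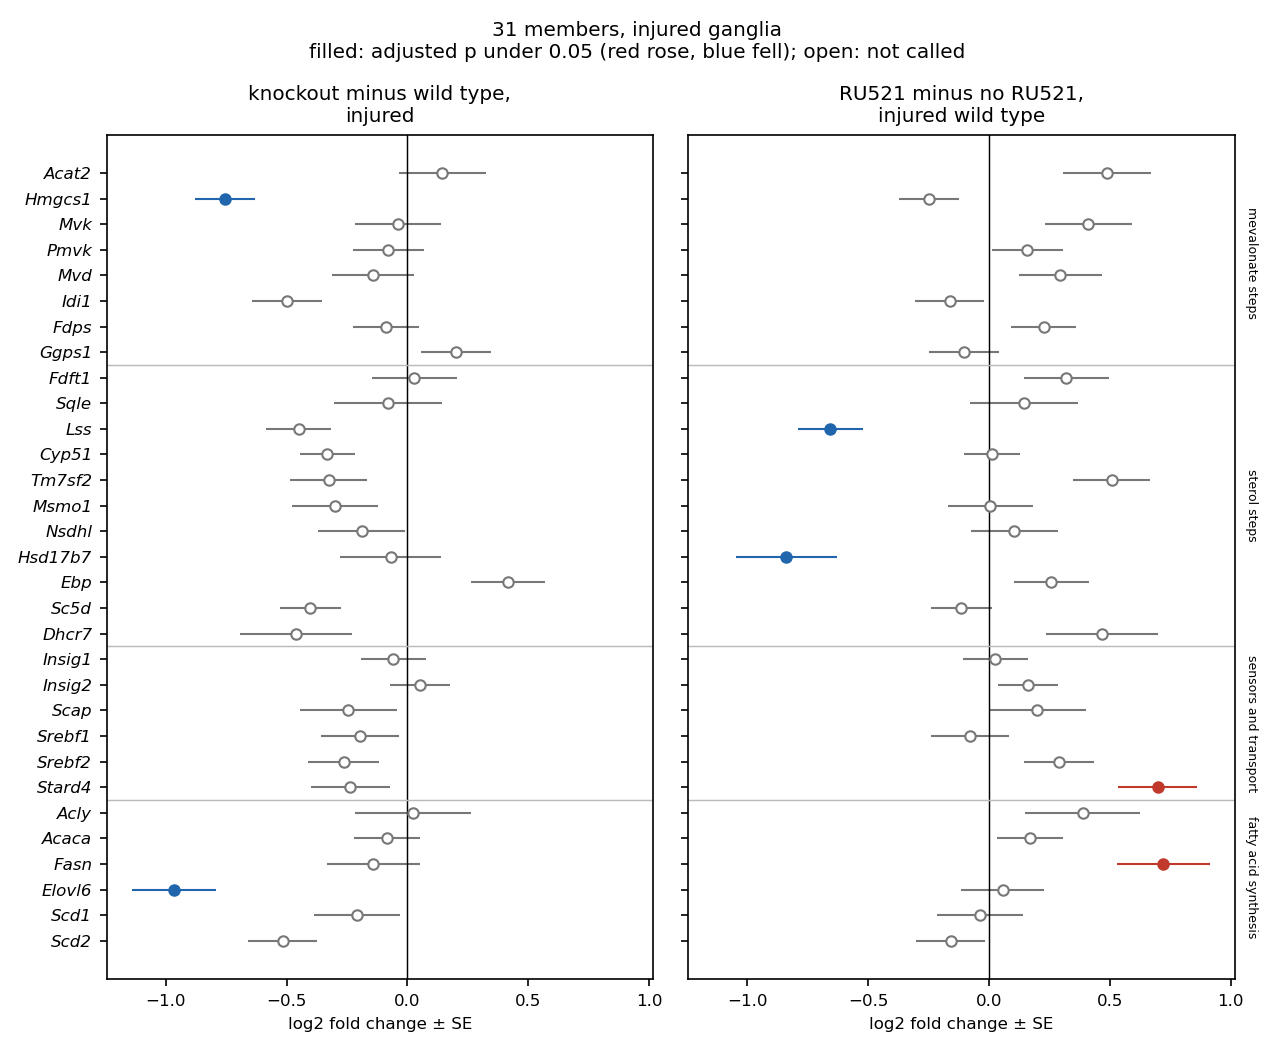
Log2 fold change with 1 SE (horizontal axis) for the 31 members by role (vertical axis) in injured ganglia, knockout minus wild type (left) and RU521 minus no RU521 in wild type (right). Filled points passed an adjusted p of 0.05. Hmgcs1 and Elovl6 are the called points on the left, and Lss, Hsd17b7, Stard4 and Fasn those on the right. Both panels use the same 3 wild-type injured libraries.

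Leaving out 1 library moved the RU521 count between 0 (without wild-type injured replicate 2) and 6 (without RU521 replicate 2), with 1 without wild-type injured replicate 3 or RU521 replicate 1 and 2 without RU521 replicate 3. Over the 13 alternatives Lss was called in 11, Stard4 in 10, Hsd17b7 in 9 and Fasn in 6, where the log2 change of Fasn ran from 0.45 to 0.96 and its adjusted p (edgeR, DESeq2 or limma) reached 0.174. RU521 replicate 1 held 28803 detected genes and 7.83% mitochondrial counts, against 30938 and 32488 genes and 11.3% and 15.5% in the other two. All 10 markers of myelinating Schwann cells fell with RU521, to a summed 9022 to 10904 CPM, 8 of 13 sensory neuron markers rose, to 7618 to 12574 CPM, and 2 of 12 macrophage markers fell. Summed macrophage markers were at 1118, 3330 and 2280 CPM with RU521, against 2793 to 2921 CPM without. Summed neutrophil markers were at 1759, 5321 and 3744 CPM against 3142 to 4161 CPM. For both lists replicate 1 was below and replicate 2 above the untreated range. Endothelial and fibroblast markers fell too (6 of 10, and all 10 were lower without overlap), to a summed 1446 to 1786 CPM. All 5 red blood cell markers were lower without overlap, at a summed 3265 to 7191 CPM, and none was called by edgeR (3 had an unadjusted p under 0.05). Of 25 other lipid synthesis genes 6 fell, led by Fa2h (-1.52 ± 0.13), Ugt8a (-1.50 ± 0.18) and Cers2 (-0.84 ± 0.11). The part of these cells in the members' changes was not tested. Cgas counts were few, at 0.375 to 1.77 CPM with RU521 and 1.81 to 2.76 CPM without, and do not check an inhibitor of the protein.

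**Figure D4:**
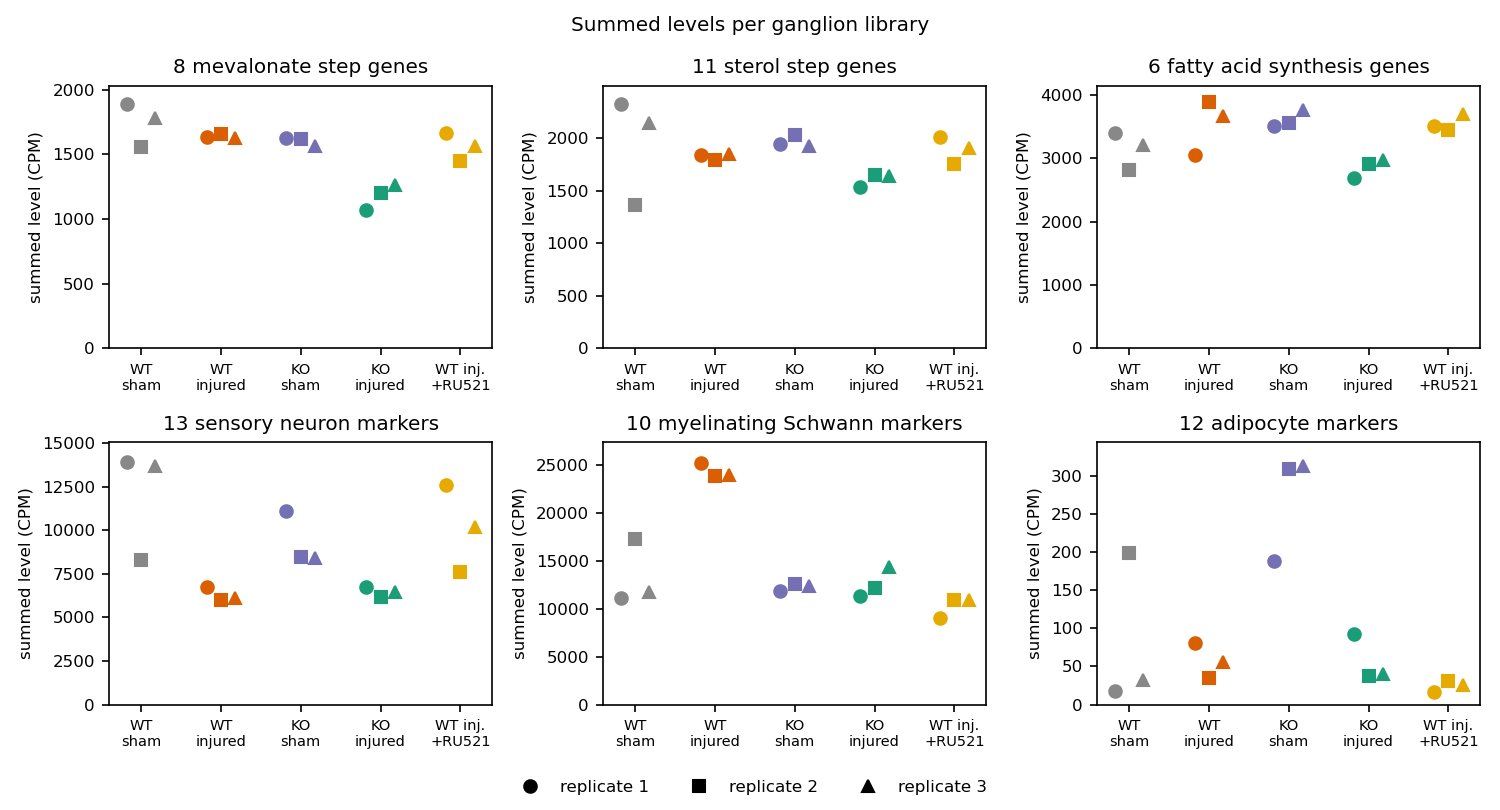
Summed level (vertical axis, CPM from 0) of 3 member groups (top) and 3 cell marker lists (bottom) in each ganglion library, by group and replicate symbol. The sterol step genes of wild-type sham span 1360.2 to 2330.0 CPM, wider than in any other group, and the mevalonate genes are lowest in the 3 knockout injured libraries (1067 to 1264 CPM). Myelinating Schwann markers are highest in wild-type injured libraries.

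Without injury, the summed sterol step genes stood at 2330.0, 1360.2 and 2143 CPM in wild type and 1944, 2030.3 and 1924 CPM in the knockout. With injury they stood at 1839, 1795 and 1853 CPM in wild type, at 1538, 1651 and 1642 CPM in the knockout and at 2015, 1756 and 1911 CPM after RU521. All 3 libraries of injured knockout ganglia lie below all others except wild-type sham replicate 2. The mevalonate sum was 1067, 1202 and 1264 CPM in knockout injured ganglia, below the 1446 to 1889 CPM of the other 12 libraries, and most of that sum is Hmgcs1.

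Several members share exon sequence with a neighbour, and ganglion reads were counted without strand. The shared part (GENCODE M21) is 26.7% of exon bases for Fdps (with Gm43738) and 18.3% for Fdft1 (with Ctsb on the other strand). It is 13.2% for Scap, 12.1% for Hmgcs1 (with Gm48342 on the other strand) and 12.1% for Tm7sf2 (with Vps51). These are shares of bases and do not measure how many reads are affected, which was not tested. In ganglia Gm48342 had at most 7 counts in a library, while Ctsb stood at 1144 to 2345 CPM against 294 to 517 CPM for Fdft1. Elovl6 shares 0.529%, and Hsd17b7, Sqle, Stard4 and Fasn share none.

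In picked retinal ganglion cells the group was detected unevenly. Between 25 and 30 members had at least 3 counts in a library, 16 had them in all 12 libraries, and 30 entered the test, Fdps being filtered out. Acly ranged from 11.6 to 283 CPM and Fdft1 from 51.5 to 263 CPM over the 12 libraries. Hmgcs1 ranged from 5.89 to 31.8 CPM and Sqle from 10.3 to 111 CPM. Hsd17b7 was at 0 in 4 libraries and at 52.8 CPM in 1, and Scd1, among the most abundant in ganglia, stayed at or under 6.27 CPM. The spread between retinal libraries was large, with a biological coefficient of variation of 1.27 over all genes against 0.262 in ganglia. Summed retinal ganglion cell markers were at 2883 to 8858 CPM and rod markers at 34.6 to 681 CPM. Knockout PBS replicate 2 stood apart with 3884 CPM of macrophage markers, against 8.76 to 199 CPM in the other 11.

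No member was called by edgeR's quasi-likelihood test for IFNγ in wild type (0% of all genes), IFNγ in the knockout (0%), genotype with PBS (0.0222%), genotype with IFNγ (0%) or the interaction (0%). In the first 2 and the interaction no member reached an unadjusted p under 0.05 and DESeq2 called 0. In both genotype comparisons 1 of the 30 members tested reached it, against 1281 (PBS) and 668 (IFNγ) of all 13487 genes tested. That member was Fdft1, the synthase that commits farnesyl diphosphate to sterols. With PBS it was at 92.7, 51.5 and 67.9 CPM in wild type and 263, 165 and 147 CPM in the knockout. With IFNγ it was at 59.9, 73.7 and 81.6 CPM in wild type and 262, 244 and 96.0 CPM in the knockout. All knockout libraries were above all wild-type libraries in both, also without knockout PBS replicate 2. In each comparison 2 members were higher without overlap, Fdft1 and, with PBS, Nsdhl or, with IFNγ, Ggps1, and 1 was lower. The share of all retinal genes without overlap was not counted, so the separation does not set Fdft1 apart from other genes. The log2 differences of Fdft1 were 1.44 ± 0.43 (edgeR adjusted p = 0.409) and 1.48 ± 0.43 (edgeR adjusted p = 0.913). DESeq2 called both (1.51 and 1.54, adjusted p = 0.0243 and 0.0412). Fdft1 shares exon bases with Ctsb, a lysosomal protease gene, which was at 753 to 4319 CPM in wild-type and 1819 to 3524 CPM in knockout retinal libraries, ranges that overlap. Hmgcs1 did not differ detectably in any of these, with log2 differences from -0.70 ± 0.74 to 0.77 ± 0.74 in the 4 comparisons of groups, an error too wide to tell a change of the size seen in ganglia.

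**Figure D5:**
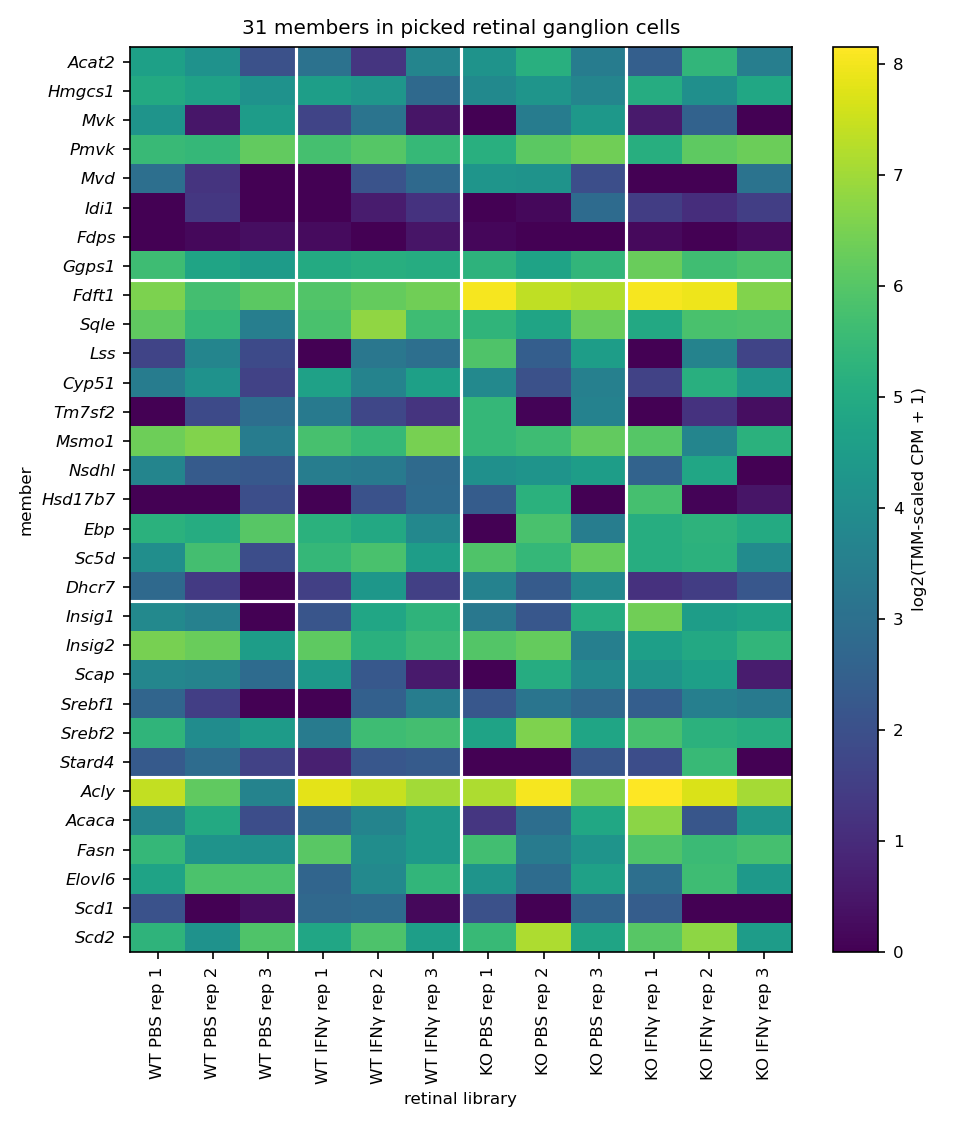
Levels of the 31 members (rows, by role) in the 12 retinal libraries (columns, by group and replicate), coloured by log2(TMM-scaled CPM + 1). Fdft1 is higher in all 6 knockout libraries than in the 6 wild-type libraries, and most other members vary as much within a group as between groups.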

How the data were processed

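The submitters' processing notes name Trim Galore, STAR and the GRCm38 (mm10) build. The deposited ganglion table holds raw counts per gene from featureCounts 2.0.1 on Ensembl release 101 and gene lengths in bases, per the file headers: paired primary alignments, mapping quality 10 or more, all exons, no strand. That command names 20 alignment files, and 15 have a column. For the retinal counts the sources used here name no program. A nameless last line of the retinal table, the sum of its column for 12 of 12 libraries and so 50% of the total, was left out.

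Each experiment was fitted with edgeR 4.0.16 in R 4.3.3 over all its groups (TMM, filterByExpr with a minimum count of 10 and a minimum total of 15, robust quasi-likelihood), testing 18517 genes in ganglia and 13487 in retinal cells, with an adjusted p of 0.05. Levels are TMM-scaled CPM, and a fold change uses edgeR's fitted log2 values. Detection of a member means at least 3 counts, while the detected genes of a library are those with any count above 0. Values per library are given for Hmgcs1, Sqle and up to 6 called members per direction with the smallest p, and up to 3 called genes are named per lipid or marker list. Hsd17b7 and Cyp51 promoters, and members named for a large spread or a near miss, were chosen after their values were seen. The members, lists and alternatives were chosen with earlier results of these data known. Motifs were searched in RefSeq promoters, and exon overlaps come from GENCODE M21.

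Alternatives were DESeq2 size factors, DESeq2 1.42.0, all genes without a count filter, limma-voom (limma 3.58.1) with quality weights, a fit of the compared groups alone, the replicate number as a block and each library left out. Added after seeing the data were a covariate for detected genes, omission of wild-type sham replicates 1 and 3, and other scalings for counts without overlap. Replicate numbers gave no pairing: no comparison had every same-number correlation above 0.1 (-0.116 to 0.208 in ganglia).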

Additional observations from a re-analysis of the deposited data

How the results depend on the processing

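Counts of called members depended on the spread estimate and on the wild-type sham libraries, and the members named above as having risen or fallen with all libraries kept their direction in every alternative run. Others did not: in wild-type injury Sqle, Acly, Msmo1 and Nsdhl, and in the sham genotype comparison Acly and Nsdhl, were called lower without wild-type sham replicate 2 and higher with it as the only sham library. Called members numbered, with DESeq2, 5 for injury in wild type, 1 for genotype in sham ganglia, and 1 for genotype with PBS and 1 with IFNγ in retinal cells. With limma-voom they numbered 17 and 20 for injury in wild type and knockout, 6 and 9 for genotype in sham and injured ganglia, 9 for the interaction and 13 for RU521. With only the groups compared they numbered 21 for injury in the knockout and 10 for genotype in injured ganglia. Without the low count filter they numbered 1 for genotype in sham ganglia and 1 for the interaction. With a covariate for each library's detected genes they numbered 1 and 13 for injury in wild type and knockout, 11 for genotype in injured ganglia and 5 for the interaction. Omitting wild-type sham replicates 1 and 3 gave 5 for injury in wild type, 5 for genotype in sham ganglia and 9 for the interaction. Leaving out 1 library at a time gave 1 to 15 for injury in wild type, 3 to 7 for injury in the knockout, 0 to 3 for genotype in sham ganglia, 2 for genotype in injured ganglia, 0 to 1 for the interaction and 0 to 6 for RU521. Here and above, the alternatives' counts of called members lack the share of all genes called in the same fit. They show how the calls shift and do not set the members apart from other genes. The cause of these shifts was not tested.

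With the replicate block, 4, 9, 0, 2, 0 and 5 members were called in the 6 ganglion comparisons (injury in wild type and knockout, genotype in sham and injured ganglia, interaction, RU521) and 0 in the 5 retinal ones. Of the libraries, 6 of 15 in ganglia and 6 of 12 in retinal cells matched best with their own number, and the correlations of same-numbered libraries did not all pass 0.1 in any comparison, so the numbers were not treated as pairs. With 3 libraries a group, a difference that missed the threshold is not shown to be absent, and in retinal cells the spread limits every comparison.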
